A study of Mus musculus with 8 samples.

Results

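Transcripts of mitochondrial oxidative phosphorylation genes were examined in double-positive thymocytes, a CD4+ CD8+ stage of T cell development in the thymus, in mice labelled c-Myb sufficient or c-Myb deficient. Members were the genes whose single symbol in the array annotation names a nuclear-encoded subunit of complexes I to V (the Nduf A, B, C, S and V families, Sdha to Sdhd, the Uqcr family and Cyc1, Cox4 to Cox8, and the Atp5 family). This rule gave 91 genes of 18193 with a single-symbol probe set, and 86 of the 91 passed the filter on dim signals, among 9941 genes that passed in all. The rule also takes in 8 genes of the Ndufaf family, whose products help to assemble complex I and are not subunits, and these are kept apart below. By symbol, the other members were 36 genes of complex I, 4 of complex II, 9 of complex III, 17 of complex IV and 17 of complex V. Another 10 probe sets carry several symbols that include such a gene and were not used here.

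The series compared 4 mice labelled c-Myb sufficient (titled Control) with 4 labelled c-Myb deficient (titled Mutant), each on its own Mouse 430 2.0 array. All mice were Tcra-/-, carried Cd4-Cre and were 4 to 5 weeks old, and cells were enriched on anti-CD4 magnetic columns. Lack of the T-cell receptor alpha chain stops thymocytes at the double-positive stage, and Cd4-Cre deletes floxed sequence in the T lineage only, at about that stage. The source names contradict the genotype field: they give the sufficient mice as Mybf/f and the deficient mice as Mybf/w, a floxed and a wild-type allele. Groups are therefore named by their genotype label, and each difference is deficient minus sufficient arrays as labelled.

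Oxidative phosphorylation takes place in the inner mitochondrial membrane. Complexes I and II pass electrons from NADH and succinate to coenzyme Q, complex III passes them to cytochrome c and complex IV to oxygen. Complexes I, III and IV pump protons, and complex V, the ATP synthase, uses the gradient to make ATP. Most subunits are encoded in the nucleus and a few core subunits in mitochondrial DNA, so that both genomes must supply each complex except complex II. Thymocytes draw on this pathway as well as on glycolysis, and its use varies with their stage and division.

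Values are the deposited signals in linear units, which had been scaled to an equal trimmed mean on every array. Differences are on the log2(signal + 16) scale with their standard error (SE), n = 4 mice per group throughout. A gene is called, and is said to rise or fall, when its Benjamini-Hochberg adjusted p in limma over 9941 genes is below 0.05. Over all genes 992 were called, 586 higher and 406 lower. Xist, the RNA of the inactive X chromosome, read 4128.7 to 5735.5 on the 4 deficient arrays and 4358.5 on sufficient replicate 1, but 23.4 to 36.7 on sufficient replicates 2, 3 and 4. The 18S ribosomal RNA control read 7142.7 on deficient replicate 4 and 676.1 to 1459.4 on the others. The 3′ to 5′ signal ratio, a measure of RNA integrity, was 0.718 to 0.821 for Gapdh on sufficient arrays and 0.779 to 0.824 on deficient ones. In a bulk sample of this kind, fewer cells of a type and less RNA per cell cannot be told apart.

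Most oxidative phosphorylation genes lay slightly higher on deficient arrays, by amounts that rarely passed the test. Of 86 tested members 74 had a difference above 0 (86.0%), against 53.4% of all genes tested. The median difference was 0.13 on the log2 scale, with the middle 50% of members between 0.07 and 0.21, while the median over all genes was 0.02. Only 5 members were called (5.81%), 3 higher and 2 lower, against a background of 9.98% of all genes called, 5.89% higher and 4.08% lower. The share of members called was thus below that of all genes, while their differences leaned to one side. At an unadjusted limma p under 0.05 there were 28 members, 26 of them higher, or 32.6% against a background of 25.1%. Groups of 4 arrays did not overlap for 21 members, 19 higher and 2 lower, or 24.4% against 17% of all genes (9.88% higher). Most members gave strong signals, so the same summary was taken over genes with a mean signal above 1000. There the median was 0.13 over 72 members and 0.01 over 2487 genes. With all genes of that brightness, 51.5% of the differences were above 0, and with the members 91.7%. The other shares lay closer together there. An unadjusted limma p under 0.05 was found for 29.2% of these members and 28.5% of these genes. Groups did not overlap for 22.2% and 20.4%, and 2.78% and 12.3% were called. Shares given below for single complexes stand against all genes tested, of any brightness.

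**Figure D1:**
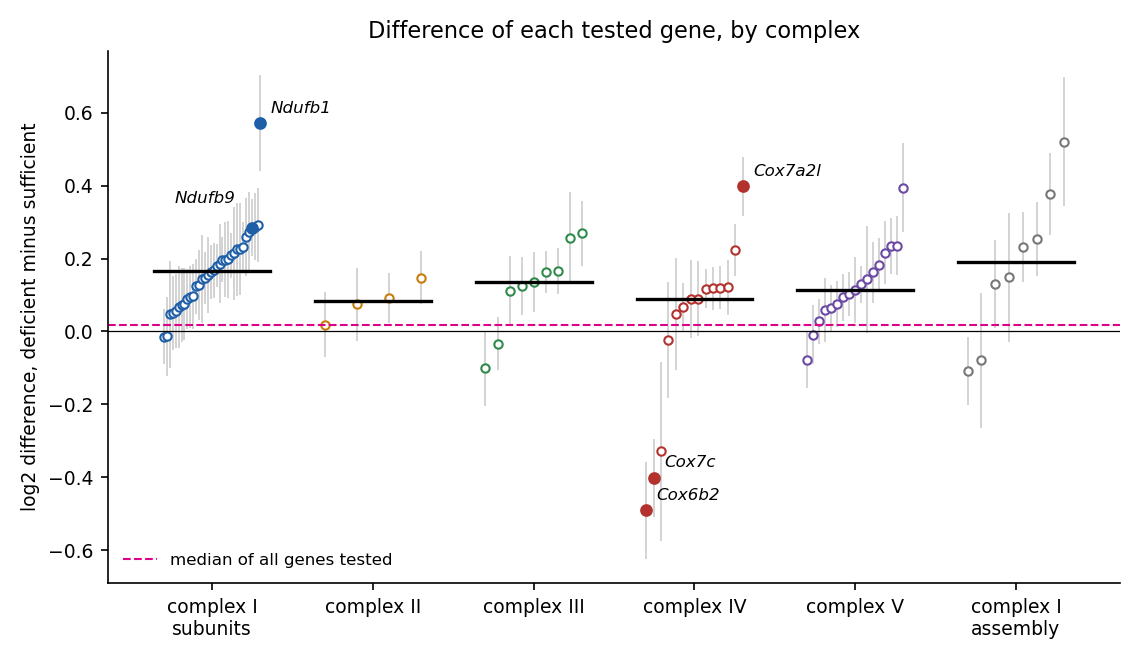
Each point is 1 tested gene, with its log2 difference (deficient minus sufficient) on the vertical axis and its SE as a grey bar, grouped by complex. Filled points are the 5 called genes, black bars are medians and the dashed line is the median of all genes tested (0.02). The medians of complexes I to V lie between 0.08 and 0.17, and complex IV holds the 2 genes that fell.

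The median difference was 0.17 over 34 tested subunit genes of complex I, 0.08 over 4 of complex II, 0.14 over 9 of complex III, 0.09 over 14 of complex IV and 0.11 over 17 of complex V. The 8 complex I assembly genes had a median of 0.19. Without sufficient replicate 2 the medians of complexes II, IV and V were 0.05, 0.03 and 0.07. Differences were above 0 for 32 of the 34 complex I genes, for 4 of 4 in complex II, 7 of 9 in complex III, 10 of 14 in complex IV and 15 of 17 in complex V. Whether the complexes differ from one another was not tested. Calls fell in complex I (2 higher) and complex IV (1 higher and 2 lower), and 0 genes were called by limma in complexes II, III and V. In those complexes 0 of 4, 3 of 9 and 6 of 17 genes had an unadjusted p under 0.05, all higher. Those shares were 0%, 33.3% and 35.3%, against 25.1% of all genes.

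The shift was also uneven between mice. The median over all 86 members of the log2 signal, centred for each gene on its 8 arrays, was -0.09, -0.20, -0.04 and 0.02 in sufficient replicates 1 to 4. It was 0.11, 0.03, -0.01 and 0.14 in deficient replicates 1 to 4. The groups overlapped: sufficient replicate 4 lay above deficient replicate 3, and sufficient replicate 2 lay lowest of all. Over all genes tested the same medians ran from -0.01 to 0.03. Sufficient replicate 1, which had high Xist like the deficient mice, lay within the range of the other sufficient mice. Deficient replicate 4, with its high 18S signal, lay highest, and without it the median of the members was 0.11. Without sufficient replicate 2 it was 0.10, the lowest value of the 8 fits that each left out 1 array.

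**Figure D2:**
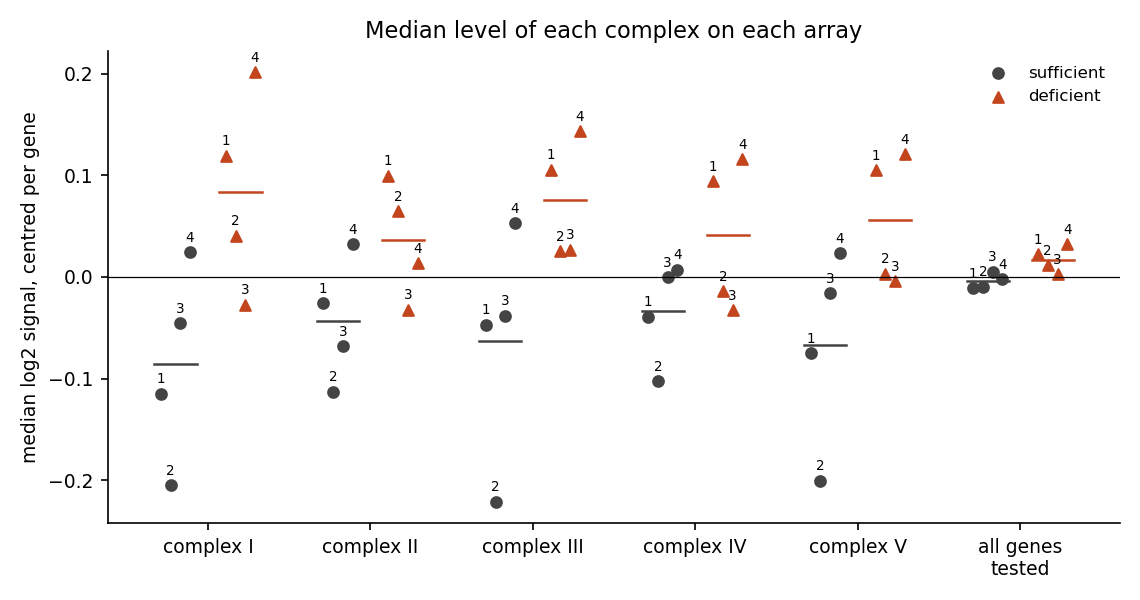
The vertical axis shows the median log2 signal of each complex's tested genes on each array, centred per gene over the 8 arrays. Circles are sufficient and triangles deficient mice, numbered by replicate, and bars are group means. Sufficient replicate 2 is the lowest point in each of the complexes I to V, and deficient replicate 4 the highest in all but complex II, where deficient replicate 1 is.

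Among the called genes, Cox7a2l rose most firmly. It encodes a relative of the COX7A subunit that joins complexes III and IV into supercomplexes. Its signal was 3459, 4074, 3499 and 3194 on sufficient and 4588, 4393, 4845 and 4886 on deficient arrays. All 4 deficient mice lay above the 4 sufficient ones. The group means were 3556 ± 371 and 4678 ± 231 (SD, n = 4), a log2 difference of 0.40 ± 0.08 (SE) and an adjusted p of 0.0117. Its 2 other probe sets differed by 0.42 and 0.40. It was called in all 8 fits that left out 1 array, with adjusted p up to 0.0427.

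Ndufb1 and Ndufb9, accessory subunits in the membrane arm of complex I, also rose. Ndufb1 read 91.8, 92.8, 94.2 and 122.9 on sufficient and 149.3, 140, 166.7 and 170.1 on deficient arrays, with no overlap (log2 difference 0.57 ± 0.13, adjusted p = 0.0206). Its size depends on the pseudocount, at 0.43 with 64. These signals are low beside those of Ndufb9. Ndufb1 was read on its only probe set with a single symbol, and how well that reads the transcript was not tested. Ndufb9 read 2862, 2586, 2928 and 3191 on sufficient and 3446, 3362, 3492 and 3774 on deficient arrays. All deficient values were the higher (0.28 ± 0.08, adjusted p = 0.0434), and its other probe set above the dim limit differed by 0.33. Ndufb9 passed in 1 of the 8 fits without 1 array, the fit without sufficient replicate 4, with adjusted p up to 0.105 in the rest. Ndufb1 was lost without sufficient replicate 1, sufficient replicate 3 or deficient replicate 3 (adjusted p = 0.0541, 0.0671 and 0.0626).

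The 2 genes that fell encode small subunits of complex IV. Cox7c, present in complex IV of all tissues, read 370.1, 410.6, 375.2 and 368.1 on sufficient and 238.8, 287.2, 303.2 and 313.2 on deficient arrays. Groups did not overlap, and Cox7c fell by 0.40 ± 0.11 (adjusted p = 0.0374), with -0.51 on its other probe set. Its signals are low beside other complex IV genes, such as Cox6c (5540 ± 462) and Cox7a2 (8684 ± 505) on sufficient arrays. The other probe set of Cox7c read 87.5 to 150.7. The probe set used ends in _s_at, which may cross-hybridise, and how well either reads the Cox7c transcript was not tested. Cox6b2, the testis-type isoform of the COX6B subunit, read 308.7, 285, 359.7 and 291.2 on sufficient and 276.8, 187.2, 198.5 and 210.6 on deficient arrays. Here deficient replicate 1 lay close to the lowest sufficient mouse, and Cox6b2 fell by 0.49 ± 0.13 (adjusted p = 0.0416). Cox7c passed in 1 of the 8 fits without 1 array (that without deficient replicate 4) and Cox6b2 in 2 (those without sufficient replicate 2 and deficient replicate 1), with adjusted p up to 0.0991 and 0.131. Each of these 5 genes had an exact permutation p (two-sided) of 0.0286, below which 70 labellings of 4 against 4 cannot go. Centring each array on its median ended all these calls but that of Ndufb1 (Cox7a2l adjusted p = 0.0578), and dropping the dim filter ended all but that of Cox7a2l (Ndufb1 adjusted p = 0.0600). When Xist class was added as a covariate, so that only sufficient replicate 1 is matched to the deficient mice, 0 of the 86 members and 26 of all 9941 genes were called. The 5 differences were then 0.43 for Cox7a2l, 0.67 for Ndufb1, 0.30 for Ndufb9, -0.36 for Cox7c and -0.49 for Cox6b2, and the median of the members was 0.15.

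**Figure D3:**
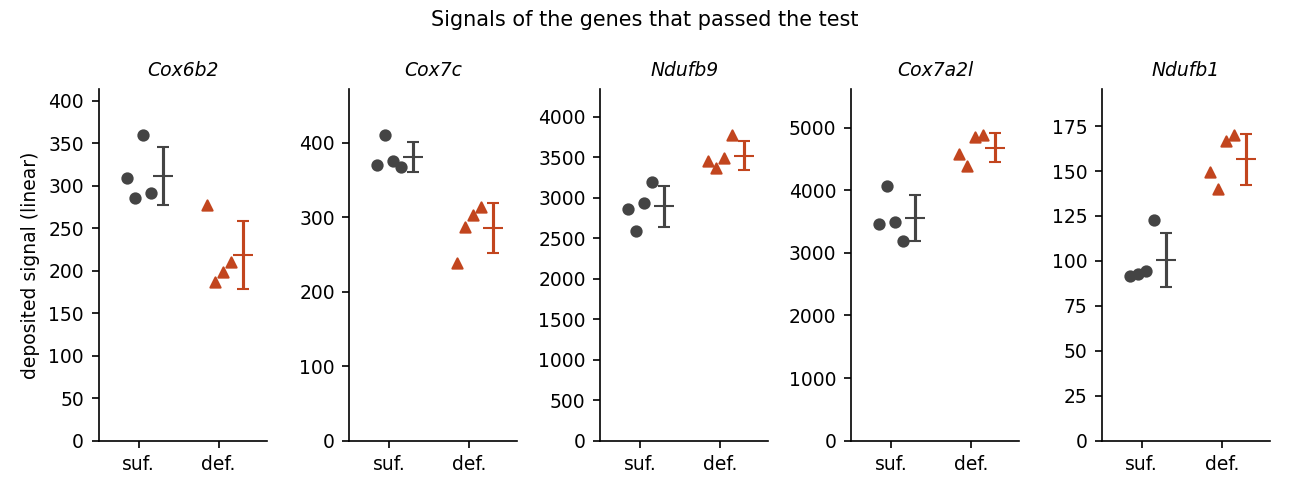
Deposited signals (linear scale from 0, a separate axis for each gene) of the 5 called genes on the 4 sufficient (circles) and 4 deficient (triangles) arrays, with mean and SD beside the points. The groups do not overlap for any of the 5, and the gap is narrowest for Cox6b2, where 276.8 in deficient replicate 1 stands next to 285 in a sufficient mouse.

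The promoters of the called genes are shown first, because these genes carry the differences that passed. Each line gives 250 bases before to 50 after the start in RefSeq, GRCm38.p6, 5′ to 3′ on the gene's strand. Motif matches would stand in capitals. The motifs searched on both strands were that of NRF1 (GCGCA, then any single base, then the letters GCGC), the ETS motif read by GABPA (CCGGAAG), that of YY1 (AAGATGGC), all of factors known to bind promoters of respiratory chain genes, and that of MYB (CAACTG, with T also allowed as the first letter and G as the letter before the last). Windows were found for 74 of the 91 members, and Ndufb9 is not among them. Cox7a2l lies at chr17:83514284-83514583, Ndufb1 at chr12:101975689-101975988, Cox7c at chr13:86046746-86047045 and Cox6b2 at chr7:4753045-4753344, all on the minus strand. None of these letters occur in the 4 windows.
Cox7a2l: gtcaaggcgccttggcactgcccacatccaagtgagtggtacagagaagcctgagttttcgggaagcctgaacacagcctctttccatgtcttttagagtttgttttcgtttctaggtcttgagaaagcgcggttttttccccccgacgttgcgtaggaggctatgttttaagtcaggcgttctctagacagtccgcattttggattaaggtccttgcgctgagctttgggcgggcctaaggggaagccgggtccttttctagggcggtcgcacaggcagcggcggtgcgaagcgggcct
Ndufb1: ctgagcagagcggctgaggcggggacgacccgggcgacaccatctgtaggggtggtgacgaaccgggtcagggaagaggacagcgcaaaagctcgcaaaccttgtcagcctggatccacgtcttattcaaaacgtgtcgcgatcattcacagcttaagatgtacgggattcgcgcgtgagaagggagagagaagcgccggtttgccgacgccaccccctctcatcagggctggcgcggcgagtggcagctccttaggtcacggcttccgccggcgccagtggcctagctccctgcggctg
Cox7c: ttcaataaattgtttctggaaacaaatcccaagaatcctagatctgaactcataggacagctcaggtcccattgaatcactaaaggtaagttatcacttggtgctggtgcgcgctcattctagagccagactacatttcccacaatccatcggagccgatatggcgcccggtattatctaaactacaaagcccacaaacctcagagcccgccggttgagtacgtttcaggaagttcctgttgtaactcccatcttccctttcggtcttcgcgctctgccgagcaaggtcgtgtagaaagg
Cox6b2: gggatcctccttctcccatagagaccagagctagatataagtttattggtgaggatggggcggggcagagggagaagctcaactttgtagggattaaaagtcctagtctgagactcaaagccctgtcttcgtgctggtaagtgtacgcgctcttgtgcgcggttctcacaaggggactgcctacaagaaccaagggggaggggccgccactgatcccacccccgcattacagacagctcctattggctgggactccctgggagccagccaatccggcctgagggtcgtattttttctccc

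By contrast, 4 members held both an NRF1 and an ETS match, and their windows are shown for that reason. Capitals mark the NRF1 and ETS matches and, in Atp5k and Sdhd, a MYB match after the start. Atp5h lies at chr11:115419870-115420169, Atp5k at chr5:108434350-108434649, Cox6a1 at chr5:115348909-115349208 and Sdhd at chr9:50603800-50604099, all on the minus strand. None of the 4 genes was called. Their differences were -0.08 for Atp5h, 0.11 for Atp5k, 0.12 for Cox6a1 and 0.02 for Sdhd. Other probe sets gave 0.11 for Atp5h, 0.15 and 0.11 for Atp5k, -0.06 for Cox6a1 and 0.33 for Sdhd.
Atp5h: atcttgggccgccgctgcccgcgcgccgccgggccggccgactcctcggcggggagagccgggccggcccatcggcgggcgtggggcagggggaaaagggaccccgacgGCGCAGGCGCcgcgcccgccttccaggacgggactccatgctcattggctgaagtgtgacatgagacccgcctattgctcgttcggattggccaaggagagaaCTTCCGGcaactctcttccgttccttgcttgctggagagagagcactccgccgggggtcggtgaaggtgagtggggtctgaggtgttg
Atp5k: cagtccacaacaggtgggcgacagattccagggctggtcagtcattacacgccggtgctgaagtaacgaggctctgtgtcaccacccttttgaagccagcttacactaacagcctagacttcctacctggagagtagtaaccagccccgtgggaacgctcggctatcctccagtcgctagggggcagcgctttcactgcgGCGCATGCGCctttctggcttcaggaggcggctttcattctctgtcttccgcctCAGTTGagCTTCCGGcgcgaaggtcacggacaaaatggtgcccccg
Cox6a1: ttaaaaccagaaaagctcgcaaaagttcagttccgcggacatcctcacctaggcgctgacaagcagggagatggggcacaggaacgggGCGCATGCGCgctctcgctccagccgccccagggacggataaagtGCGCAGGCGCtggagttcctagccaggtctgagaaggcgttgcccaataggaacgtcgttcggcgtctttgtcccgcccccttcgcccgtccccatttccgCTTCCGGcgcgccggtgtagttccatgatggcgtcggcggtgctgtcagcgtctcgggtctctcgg
Sdhd: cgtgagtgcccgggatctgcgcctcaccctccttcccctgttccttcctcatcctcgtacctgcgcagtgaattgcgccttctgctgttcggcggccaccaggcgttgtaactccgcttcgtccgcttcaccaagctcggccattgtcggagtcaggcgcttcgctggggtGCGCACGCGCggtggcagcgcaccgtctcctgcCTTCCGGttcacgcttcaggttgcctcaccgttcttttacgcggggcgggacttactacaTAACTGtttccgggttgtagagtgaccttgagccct

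The NRF1 letters were found in 22.8% of 79 member windows and 4.60% of 32851 windows of all genes. The ETS letters were found in 24.1% and 8.86%, those of YY1 in 12.7% and 2.75%, and those of MYB in 25.3% and 28.3%. The median share of G and C was 59.0% in the member windows and 52.7% in those of all genes, and its part in these shares was not tested. The tested members with an NRF1, ETS or YY1 match had a median difference of 0.12 (39 genes), and those with none 0.15 (32 genes). With a MYB match the median was 0.15 (19 genes) and with none 0.13 (52 genes). A match describes these letters and is not a measured site of binding.

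In complex I, the 6 tested core subunits, which hold the flavin and the iron-sulfur clusters or belong to the catalytic arm, had differences of 0.06 to 0.23 and a median of 0.11. None of them was called, and 0 had an unadjusted p under 0.05, against 25.1% of all genes. Ndufs1, which carries iron-sulfur clusters, read 1229 ± 24.6 and 1316 ± 116 (0.09 ± 0.08), and Ndufv1, the NADH-binding subunit, 1667 ± 194 and 1752 ± 168 (0.07 ± 0.10). Ndufs8 read from 2886.5 to 4439.6 on sufficient and from 3753.6 to 4788.5 on deficient arrays, the largest difference of the core (0.23 ± 0.13, adjusted p = 0.308). These sizes depend on the probe set. On other probe sets Ndufv1 differed by 0.17 and 0.29, Ndufv2 by 0.27 and 0.16, and Ndufs7 by 0.08. Those of Ndufs8 ran from -0.40, at signals of 37.8 to 97, to 0.19.

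The 28 accessory subunits had a median of 0.18, with 26 differences above 0. Unadjusted limma p-values were under 0.05 for 11, all higher, or 39.3% against 25.1% of all genes (14.7% higher). The Ndufb family of the membrane arm was above 0 in 10 of 10 tested genes, with a median of 0.20. The groups did not overlap for 4 of them, or 40% against 17% of all genes. Besides the 2 called genes these were Ndufb2 (0.29 ± 0.09, adjusted p = 0.0748) and Ndufb11 (0.21 ± 0.06, adjusted p = 0.0601). Ndufb11 and Ndufa1 are on the X chromosome, and Ndufa1 differed by 0.05 ± 0.10. In sufficient replicate 1, the sufficient mouse with high Xist, Ndufb11 read 4541.3 against 4558.7 to 4868.5 in the other sufficient mice.

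Ndufa10, an accessory subunit of the membrane arm, had the next difference after Ndufb1 in complex I. It read 2042, 1842, 1676 and 2006 on sufficient and 2309, 2550, 2486 and 1947 on deficient arrays (0.29 ± 0.10, adjusted p = 0.0988). Deficient replicate 4 lay within the sufficient range, and without that array Ndufa10 was called (0.37, adjusted p = 0.0256). At the other end, Ndufs4 read 2032 ± 74.9 and 2014 ± 143 and Ndufa9 2419 ± 387 and 2377 ± 149, differences of -0.01 ± 0.08 and -0.01 ± 0.11. Ndufs4 and Ndufa9 are accessory subunits at the NADH-binding arm and at its junction with the membrane. Ndufb4 was below the dim limit on all arrays (9.1 to 21.7) and was not tested. It was read on its only probe set with a single symbol, and whether that probe set detects the transcript was not tested. The low signal therefore does not show that the gene is silent.

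Of the assembly genes of complex I, 6 of 8 had differences above 0 and 0 were called. At an unadjusted limma p under 0.05 there were 4, or 50% against 25.1% of all genes. Ndufaf6 read 121.9, 83, 101.4 and 154 on sufficient and 191.9, 141.2, 154.1 and 191.6 on deficient arrays, so the groups overlapped (0.52 ± 0.18, adjusted p = 0.0911). Ndufaf7, a methyltransferase that modifies a core subunit, differed by 0.38 ± 0.11 (adjusted p = 0.0566), and Ndufaf3 by -0.11 ± 0.09.

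Complex II is the only complex with no subunit from mitochondrial DNA, and it also serves the tricarboxylic acid cycle as succinate dehydrogenase. Sdhc, a membrane anchor, read 1455, 1376, 1456 and 1560 on sufficient and 1596, 1650, 1606 and 1626 on deficient arrays. The groups did not overlap, and the difference of 0.15 ± 0.07 did not pass (adjusted p = 0.234). The flavoprotein gene Sdha read 3159 ± 157 and 3366 ± 176 (0.09 ± 0.07), the iron-sulfur subunit gene Sdhb 3190 ± 435 and 3340 ± 221 (0.07 ± 0.10), and the other anchor, Sdhd, 1556 ± 60.7 and 1583 ± 174 (0.02 ± 0.09). Probe sets disagreed in size here. The 2 other probe sets of Sdha above the dim limit differed by 0.34 and 0.23, and that of Sdhd by 0.33.

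In complex III 7 of 9 differences were above 0, and those of both large core proteins were below on the probe sets used. Uqcr11, a small subunit, read 1758, 1590, 1746 and 1945 on sufficient and 2076, 2027, 1997 and 2398 on deficient arrays. Its groups did not overlap (0.27 ± 0.09), but it was not called (adjusted p = 0.0828). Uqcrq, another small subunit, differed by 0.26 ± 0.13 (adjusted p = 0.241), and its other probe set above the dim limit, at signals of 14 to 50.3, by -0.42, so its direction rests on the probe set. The core proteins Uqcrc1 and Uqcrc2 read 2857 ± 349 and 3602 ± 208 on sufficient and 2655 ± 252 and 3518 ± 223 on deficient arrays, differences of -0.10 ± 0.10 and -0.03 ± 0.07. The other probe set of Uqcrc2 differed by 0.06, so the direction of Uqcrc2 rests on the probe set. Cyc1, the cytochrome c1 haem subunit, and Uqcrfs1, the Rieske iron-sulfur subunit, differed by 0.13 ± 0.08 and 0.14 ± 0.08.

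Of the 14 tested genes of complex IV 11 were not called, several ubiquitous isoforms among them. Cox4i1, the regulatory subunit, read 6846 ± 300 and 7430 ± 310 (0.12 ± 0.06, adjusted p = 0.246). Cox6a1 differed by 0.12 ± 0.05, Cox6b1 by 0.12 ± 0.06, Cox7a2 by 0.07 ± 0.07 and Cox8a by 0.09 ± 0.10, none of them called. Among their other probe sets above the dim limit, only that of Cox6a1 lay below 0 (-0.06). Cox5b read 6110, 5190, 5791 and 6053 on sufficient and 7021, 6564, 6310 and 7118 on deficient arrays. Its groups did not overlap and its adjusted p was 0.0727 (0.22 ± 0.07). Ndufa4, named for complex I and counted there above by its symbol, is found in complex IV. It read 2884 ± 541 and 3149 ± 213 (0.14 ± 0.12), and its difference was -0.18 with Xist class as a covariate.

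Apart from Cox6b2, described above, the isoforms known from other tissues read at most 83.2 on any array, against a dim limit of 33.8. Cox6a2 and Cox7a1, of heart and skeletal muscle, read 51.2 to 76.7 and 50.2 to 68.8 over the 8 arrays, with differences of -0.02 ± 0.16 and 0.05 ± 0.15. Cox8c, of testis, read 63.5 to 83.2 on sufficient arrays and from 24.8 to 74.8 on deficient ones (-0.33 ± 0.25, adjusted p = 0.46). Cox8b, Cox4i2, Cox7b2 and Ndufa4l2 were below the filter and not tested, and among these the highest signal on any array was 39.4, for Ndufa4l2 in deficient replicate 3. Markers of muscle and heart (8 of 8) and of fat (4 of 4 on the array) were not above the filter either. Their summed signals were 81 to 125.6 and 8.9 to 50 on sufficient arrays and 75 to 110.2 and 34.8 to 163.1 on deficient ones.

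In complex V, the 3 genes of the c subunit, which forms the rotating ring, encode the same mature protein and differ in their targeting peptides. Atp5g1 read 1169, 994, 1156 and 1502 on sufficient and 1774, 1425, 1496 and 1616 on deficient arrays, which overlapped (0.39 ± 0.12, adjusted p = 0.0689). Without sufficient replicate 4 it was called (0.50, adjusted p = 0.0169). Atp5g2 read 3674, 3105, 3534 and 4038 against 4292, 4164, 4159 and 4217, with no overlap and a difference of 0.24 ± 0.08 (adjusted p = 0.0933). Atp5g3 differed by 0.10 ± 0.06 (adjusted p = 0.324). The catalytic F1 subunits Atp5a1 and Atp5b differed by 0.08 ± 0.06 and 0.06 ± 0.06. Atp5c1, the central stalk subunit, read 6194 to 6409 on sufficient and 6735 to 7036 on deficient arrays, with no overlap and a difference of 0.13 ± 0.05 (adjusted p = 0.144). The stalk genes Atp5h and Atp5o differed by -0.08 ± 0.08 and -0.01 ± 0.08. Their other probe sets differed by 0.11 and 0.06, so both directions rest on the probe set. Atpif1, the inhibitor of the ATP synthase, is not a member and differed by 0.07 ± 0.11.

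**Figure D4:**
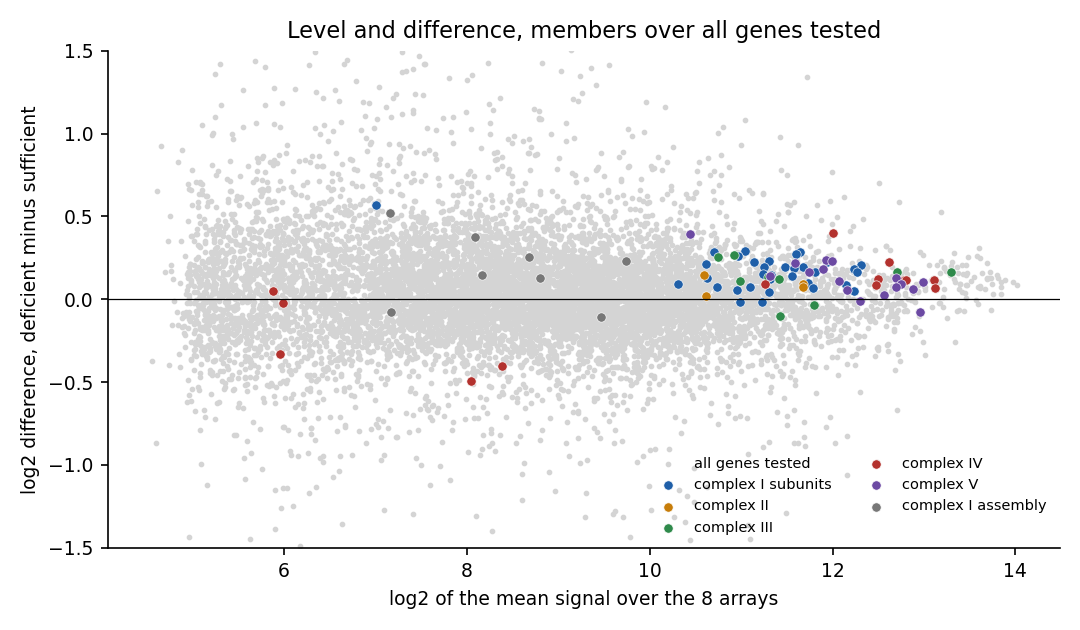
The horizontal axis is the log2 of the mean signal over 8 arrays and the vertical axis the log2 difference (deficient minus sufficient). Grey points are the 9941 genes tested, of which 91 lie outside the plotted range of 1.5 to either side, and coloured points are the members by complex. Most members sit at high signal just above 0. The 2 genes that fell have mean signals below 400, and so has Ndufb1, which rose.

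Other mitochondrial genes were taken from lists that were chosen with earlier results of these data known. Their counts stand against 9.98% of all genes called, 5.89% higher and 4.08% lower, and 53.4% of differences above 0. With Xist class as a covariate, the called genes named from these mitochondrial lists lost their calls at adjusted p of 0.211 to 0.614, except Slc25a12, which was not refitted. Of 43 tested assembly factors of all complexes, the 8 Ndufaf genes among them, 2 rose and 0 fell (4.65%), with a median of 0.15. Those were Sdhaf1 and Sdhaf4, which help to assemble complex II. Sdhaf1 read 271.7, 251.4, 293.6 and 259.1 on sufficient and 369.4, 392.5, 441.8 and 355.9 on deficient arrays, with no overlap (0.51 ± 0.10, adjusted p = 0.0108). Sdhaf4 differed by 0.44 ± 0.10 (adjusted p = 0.0221), and its call was lost without sufficient replicate 3 or deficient replicate 1, 2 or 3.

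Of 14 genes for cytochrome c and coenzyme Q synthesis 1 rose (7.14%), with a list median of 0.31. That gene was Coq2, which attaches the side chain of coenzyme Q, at 347 ± 54.3 and 546 ± 60.1 (0.64 ± 0.13, adjusted p = 0.0102). The cytochrome c gene Cycs differed by -0.02 ± 0.14. Of 17 carrier and uncoupling genes 3 rose (17.6%) and 16 differences were above 0, with a median of 0.13. Slc25a4, an ADP/ATP carrier that exports the ATP made by complex V, read 2622, 2281, 2254 and 2418 on sufficient and 3561, 3868, 3609 and 3187 on deficient arrays. Its groups were far apart and the difference was 0.57 ± 0.08 (adjusted p = 0.00182). Slc25a5, another ADP/ATP carrier, gave a stronger signal, at 9408 ± 234 and 9504 ± 456. It was not called (0.01 ± 0.05, adjusted p = 0.911). Slc25a33, a pyrimidine nucleotide carrier, rose from 34.3 ± 11.5, near the dim limit, to 74.2 ± 17.2 (0.85 ± 0.22), and Slc25a12 rose by 0.35 ± 0.09. The call of Slc25a33 held in 2 of the 8 fits without 1 array and was lost with no dim filter (adjusted p = 0.0722).

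Of 23 tested genes of the tricarboxylic acid cycle and pyruvate dehydrogenase 1 rose and 1 fell, or 8.7% called, with a median of 0.09 (0.17 with Xist class as a covariate and 0.06 without sufficient replicate 1). Pdha1, the X-linked catalytic subunit of pyruvate dehydrogenase, rose from 2409 ± 127 to 3022 ± 182 (0.32 ± 0.07, adjusted p = 0.0188). Its call was lost with the mean of all its probe sets (adjusted p = 0.0706), with each array centred on its median (0.0930), and without sufficient replicate 1 or 3 or deficient replicate 2 or 3. Pdp1, the phosphatase that activates the same enzyme, fell by 0.67 ± 0.14 (178 ± 16.1 to 107 ± 17.6, adjusted p = 0.0117).

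Of 76 mitochondrial ribosomal protein genes 4 rose (5.26%), 68 differences were above 0 and the median was 0.14 (0.08 without sufficient replicate 2 and 0.09 with array weights). Mrpl4 rose by 0.55 ± 0.11 and Mrpl45 by 0.35 ± 0.10. The call of Mrpl45 held in 1 of the 8 fits without 1 array, that without sufficient replicate 4, and was lost with median centring (adjusted p = 0.139), no dim filter (0.0609), no variance trend (0.0563) or the replicate number as a block (0.0563). Genes for mitochondrial transcription and biogenesis leaned the other way, with 11 of 27 differences above 0 and a median of -0.06. That median was 0.02 with Xist class as a covariate, -0.01 with the mean of all probe sets, and -0.04, -0.03, -0.03, -0.01 and 0.01 without sufficient replicate 4, deficient replicates 1, 2 and 3 and sufficient replicate 3. Polg2, the accessory subunit of the mitochondrial DNA polymerase, was the 1 gene (3.7%) called there (0.46 ± 0.10, adjusted p = 0.0157), and the call was lost without deficient replicate 2 (adjusted p = 0.0609). The genes of the factors named above for the NRF1, ETS and YY1 motifs were not called. Nrf1 differed by -0.15 ± 0.12, Gabpa by -0.07 ± 0.12 and Yy1 by -0.25 ± 0.10. Myb, the gene of the MYB motif, is not reported here. Ppargc1a, a coactivator of mitochondrial biogenesis, was below the dim limit on all arrays (1.2 to 19.8). The 1 gene of mitochondrial DNA with a single symbol, ND5, read 10438 ± 2153 and 12157 ± 2928 (0.21 ± 0.18, adjusted p = 0.524). Its difference depended on single arrays and settings. It was 0.33, 0.13 and 0.13 without sufficient replicates 2, 3 and 4, 0.08 and 0.37 without deficient replicates 2 and 4, 0.11 with quantile normalization, 0.42 with array weights and 0.08 with Xist class.

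**Figure D5:**
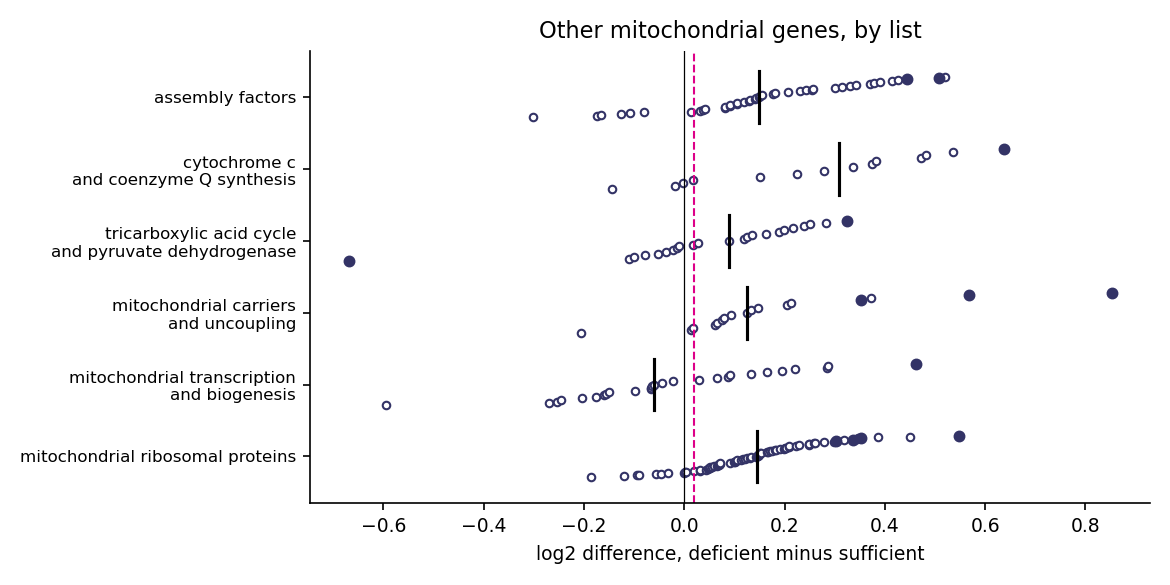
Log2 differences (deficient minus sufficient, horizontal axis) of the tested genes of 6 lists, 1 point per gene. Filled points are called genes, black bars list medians and the dashed line the median of all genes tested. List medians run from -0.06 for transcription and biogenesis to 0.31 for cytochrome c and coenzyme Q synthesis.

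Markers of double-positive thymocytes were present on all arrays, with 11 of 11 tested. Of these 4 fell (Arpp21, Cd24a, Dntt and Rag2) and 0 rose, or 36.4% called against 9.98% of all genes (4.08% lower). Cd4 and Cd8a differed by -0.08 ± 0.12 and 0.04 ± 0.07. The summed signal of the list was 70454 to 74752 on sufficient and 62281 to 67376 on deficient arrays. Of 4 B cell markers 1 was above the filter, of 8 macrophage and dendritic cell markers 6, of 4 erythroid markers 1 and of 8 thymic stroma markers 3. Of these 11 genes 0 were called by limma, against 9.98% of all genes. At an unadjusted p under 0.05 there were 2 of them, both of the stroma list and lower, where 25.1% of all genes passed. Summed signals were 388.7 to 609.5 and 497.4 to 687 for B cells, 590.3 to 1438.7 and 807.9 to 1103.6 for macrophages and dendritic cells, 120.1 to 200.5 and 104.1 to 156.7 for erythroid cells, and 804.8 to 864.8 and 564.8 to 816.5 for stroma on sufficient and deficient arrays. The part of these cells, of Xist and of the fall in thymocyte markers in the differences above was not tested.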

How the data were processed

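The deposited table holds 1 linear intensity per probe set for each of 8 Affymetrix Mouse 430 2.0 arrays, made by the authors with GCOS per the submitters' processing notes. The sources used here give no version of it. The 2% trimmed mean was 250.0 on every array, so differences in total RNA per cell are removed. Groups come from the titles and genotype labels, and the labels call the arrays biological replicates.

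Of 45101 probe sets, 64 controls were left out, and the annotation gave 34945 a single symbol, 932 several and 9160 none. Signals were used as log2(signal + 16). The dim filter asked for a signal above 33.8 (the table's median) on at least 4 arrays, and each gene was read on its probe set with the highest mean. Of the 86 tested members 16 are read on a probe set ending in _s_at or _x_at, which may cross-hybridise, and 64 of 77 other probe sets of the members had the same sign. Arrays of a group correlated at 0.974 to 0.984, and at most 271 values were identical between arrays. Precision is limited by the 8 arrays.

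Limma 3.58.1 in R 4.3.3 (lmFit, eBayes with trend, two-sided) was fitted to 9941 genes with Benjamini-Hochberg adjustment and a threshold of 0.05, and all adjusted p-values come from it. Alternatives changed the normalization, pseudocount, filter, probe set, variance model and array weights, added the replicate number or an Xist class (cut at a signal of 1000), or left out each array. Deviations from the group mean correlated between same-numbered arrays at 0.004, 0.17, -0.27 and 0.36. These mixed values cannot decide whether the numbers pair the mice, and the main fit takes the mice as unpaired. Plots were drawn with matplotlib 3.10.9 (Python 3.11.15). The members, lists and tests were chosen with earlier results of these data known, and the motifs after the values were seen. Named genes are the called members, the largest rises and falls of each complex, isoform genes, Atpif1 and up to 2 called genes per list. Other genes named beside them were chosen after their values were seen.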

Additional observations from a re-analysis of the deposited data

Results flagged for a closer look

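The gap between the most extreme mouse and its nearest neighbour was wide for its group in 6 of 96 groups checked, where about 1 in 20 would be so by chance. For Cox7c this was sufficient replicate 2, at 410.6 against 368.1 to 375.2. For Cox8c it was sufficient replicate 3, at 83.2 against 63.5 to 66.7. Sufficient replicate 4 stood out for Ndufb1, at 122.9 against 91.8 to 94.2, and for Polg2, at 230.2 against 248.3 to 250.2. Among deficient mice, Ndufs4 stood out in replicate 1 (2229.1 against 1939 to 1949.6) and Uqcrc1 in replicate 4 (3030.3 against 2493.5 to 2558.4).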

How the results depend on the processing

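The median differences of complexes I, III, IV and V and of all members stayed above 0 and moved by less than the spread between mice under all 20 alternatives, the members' median from 0.10 to 0.15. That spread pools the SD of the array medians in sufficient and deficient mice. These SDs were 0.09 and 0.07 for all members, and 0.05 and 0.07 for complex IV. The limit is a loose one, because it is large beside the medians themselves. Without 1 array the median of complex IV ran from 0.03 to 0.12 and that of complex II from 0.05 to 0.12. The complex II median also stayed above 0 and was 0.15 with the mean of all probe sets and 0.05 with each array centred on its median. The median of all genes ran from -0.01 to 0.03. Counts of called members depended on the setting. Of 86 members 5 were called (3 higher, 2 lower), against 12 (11 and 1) with quantile normalization, 12 (10 and 2) with array weights, 1 (1 and 0) with each array centred on its median or with no dim filter, 3 (2 and 1) without the variance trend and 0 (0 and 0) with Xist class as a covariate. With the replicate number as a block the count was 7 (6 and 1), where Cox7c missed the threshold at an adjusted p of 0.0520. No other member in the report lost its call there, and Atp5g1 passed it (adjusted p = 0.0362), as Mrpl45 missed it (0.0563). Leaving out 1 array gave 1 to 6 called members, 1 to 6 higher and 0 to 1 lower. Over all genes, 992 calls became 1745 with array weights, 26 with the Xist class and 494 to 1198 without 1 array.

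Some uncalled differences changed sign between fits, those of Uqcrq (0.26) and Ndufa4 (0.14) among them, and none was called with its sign turned (lowest adjusted p 0.340). With the Xist class this gave 0.036 for Atp5h, -0.033 for Atpif1, 0.11 for Cox6a2, -0.085 for Cox8a, -0.18 for Ndufa4, 0.088 for Ndufa9, -0.026 for Sdhb, -0.018 for Sdhd and 0.017 for Uqcrc2. With the mean of all probe sets Atp5h was 0.016, Atp5o 0.024, Uqcrc2 0.015 and Uqcrq -0.081, and without _s_at and _x_at probe sets Uqcrq was -0.42. Quantile normalization gave -0.0045 for Cox7a2 and 0.0018 for Ndufa9, array weights 0.013 for Ndufs4, and centring on the median -0.00972 for Sdhd. Without 1 array the differences ran from -0.0802 to 0.041 for Atp5o, -0.044 to 0.13 for Atpif1, -0.078 to 0.051 for Cox6a2, -0.00603 to 0.11 for Cox7a1, -0.0898 to 0.084 for Ndufa9, -0.064 to 0.00303 for Ndufs4, -0.017 to 0.14 for Sdhb, -0.045 to 0.073 for Sdhd and -0.0697 to 0.00094 for Uqcrc2. The cause of these changes was not tested. Fits without 1 array have fewer samples, and the Xist fit rests on 1 sufficient mouse for the group term. Signals near the dim limit, such as those of Cox6a2, Cox7a1 and Cox8c, limit what their differences can show.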
